A study of Mus musculus with 9 samples.

Results

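TRAV11 and TRAJ18 are the variable and joining gene segments that mouse invariant natural killer T (iNKT) cells join in their T-cell receptor (TCR) alpha chain. Productive alpha (TRA) chains were taken as members where the first variable gene called was TRAV11 or its duplicate TRAV11D, or where the first joining gene called was TRAJ18. Chains without a beta (TRB) partner in the same cell barcode were included. In 8 libraries 652 of 23088 productive TRA chains qualified. Of these, 23 carried both segments, 41 carried TRAV11 with another joining gene, and 588 carried TRAJ18 with another variable gene.

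The chains came from single-cell TCR libraries of immune cells from 3 kinds of lymph node of female mice aged 10 to 11 months, namely the deep (dCLN) and superficial (sCLN) nodes of the neck and the inguinal nodes (iLN). The 6 main libraries were 1 per node type from wild-type (WT) mice and 1 per node type from 5xFAD mice, a transgenic Alzheimer's disease model whose transgenes are driven by a neuronal promoter. Cells were hashed with 4 antibody tags and tubes were pooled into composites, and the number of animals behind a library is not given in the sources used here. A dCLN library with CD4 in its title, labelled WT, was described beside the 6. So was the mixed library, whose title names the 3 node types and both genotypes. A second CD4-titled library, labelled 5xFAD, held nearly the same cells as the first and was left out, so the genotype of either is uncertain. Neither the gene expression nor the surface proteins of the cells were analysed here, so a chain is described and not a cell type. Fewer cells of a type and weaker recovery of their chains cannot be told apart.

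A TRA chain is made when a V segment is cut and joined to a J segment, usually with bases trimmed from both ends and others added between them. iNKT cells recognise lipids presented by CD1d, and in the mouse nearly all of them carry TRAV11 joined to TRAJ18 with almost no change at the joint. Their alpha chain is paired with a restricted set of beta chains, mainly of the TRBV13-2 (V-beta 8.2), TRBV29 (V-beta 7) and TRBV1 (V-beta 2) genes. They are sparse in lymph nodes compared with the liver.

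In the GRCm38 annotation Trav11 lies on chromosome 14 at 53519303 to 53519859 on the plus strand, and its duplicate Trav11d lies upstream at 52824357 to 52824912. Traj18 is a single exon at 54200777 to 54200842, which is 680918 bases beyond Trav11. The spliced transcripts of Trav11 and Trav11d were identical over 342 bases, so the 2 copies could not be separated, and 51 of the 64 TRAV11 calls named both. The germline ends show which bases each segment can supply to a joint before any are trimmed. They are given from the conserved cysteine codon for TRAV11 and over the whole segment for TRAJ18, where capitals mark the 11 codons that enter the invariant junction.
TRAV11 germline end: tgtgtggtgggcg
TRAJ18 germline: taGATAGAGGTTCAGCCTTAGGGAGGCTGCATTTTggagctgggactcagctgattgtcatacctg

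Of the 23 chains with both segments, 19 had the junction of 45 nucleotides whose 15 residues match those that the germline segments encode, 4 codons of TRAV11 and 11 of TRAJ18. These are called invariant below. The 19 chains held 4 nucleotide versions that differed from each other at position 12 of the junction, the third base of codon 4, where every base encodes glycine. They are shown with that base in capitals and are named by it.
version G: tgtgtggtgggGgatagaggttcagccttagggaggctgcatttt
version C: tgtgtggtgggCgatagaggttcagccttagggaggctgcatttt
version A: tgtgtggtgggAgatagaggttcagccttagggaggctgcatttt
version T: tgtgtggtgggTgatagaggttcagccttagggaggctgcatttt

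Version G was found in 9 chains, all from WT mice, with 2 from dCLN, 3 from sCLN and 4 from iLN. Version C was found in 6 chains, of which 3 were in sCLN WT, 1 in iLN WT and 2 in the mixed library. Version A had 1 chain in iLN WT and 1 in the mixed library, and version T had 1 in dCLN WT and 1 in iLN WT. Each version was therefore seen in at least 2 libraries, and none was seen in a 5xFAD library or the CD4-titled one. IgBLAST assigned no added base to versions C and A and 1 added base to versions G and T.

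The other 4 chains with both segments had other junctions, shown with the bases assigned as added in capitals. The chains of 48 and 51 nucleotides were the only TRAV11-TRAJ18 chains of the 5xFAD libraries, both from sCLN. The chain of 42 nucleotides was from iLN WT and that of 39 from the mixed library.
sCLN 5xFAD, 51 nucleotides: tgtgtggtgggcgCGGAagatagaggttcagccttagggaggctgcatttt
sCLN 5xFAD, 48 nucleotides: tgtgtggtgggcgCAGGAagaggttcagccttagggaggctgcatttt
iLN WT, 42 nucleotides: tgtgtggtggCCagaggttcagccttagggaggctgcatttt
mixed nodes, 39 nucleotides: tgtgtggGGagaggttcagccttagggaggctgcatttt

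Depth set how finely shares could be read. The 6 main libraries held 1495 to 3664 productive TRA chains, the CD4-titled library 6049 and the mixed library 3617. A count of 0 in a main library allows a share of 0.0819% to 0.201%, taking 3 chains as the limit. Intervals below are exact Clopper-Pearson 95% intervals and, like these limits, cover counting error only. For a count of 0 the upper end of such an interval lies above the limit of 3 chains. The V region was identical to the GRCm38 reference in 54.0% to 55.2% of TRA chains in the WT libraries and in 12.9% to 15.0% in the 5xFAD libraries. The make-up of TRA alleles thus differed between the WT and 5xFAD main libraries, and its part in the results below cannot be told apart from that of the transgenes. The V region was identical to the reference in 35.0% of TRA chains in the CD4-titled library and in 95.1% in the mixed library. The mixed library thus lay above every main library of either genotype, although its title names both, and the cause was not tested. Barcodes shared between libraries numbered at most 47 in any pair other than the CD4-titled one, and 0 of these carried the same junction.

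The main comparison asked whether the nodes of 5xFAD mice held other shares of these chains than those of WT mice. In the WT libraries the joined TRAV11-TRAJ18 chain made up 0.193% of TRA chains in dCLN (3 of 1553), 0.401% in sCLN (6 of 1495) and 0.376% in iLN (8 of 2129). In the 5xFAD libraries it made up 0% in dCLN (0 of 3664), 0.0662% in sCLN (2 of 3020) and 0% in iLN (0 of 1561). Every WT library was above every 5xFAD library. Averaged over the 3 node types, its share was 0.323% ± 0.114 for WT and 0.0221% ± 0.0382 for 5xFAD (SD, n = 3).

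On the log2 scale the fitted difference for the joined chain was -3.47 (SE 1.02, 5xFAD minus WT), with an unadjusted p of 0.000726 and an adjusted p of 0.181 in edgeR's quasi-likelihood test. Each SE of an edgeR fit is the size of the difference divided by the square root of the test's F statistic. Such an SE can be smaller than the counting error and need not match the p-value. The joined chain ranked 6 by size of difference among the 387 combinations of TRAV subgroup and TRAJ gene tested. It had the lowest p of them and did not pass the threshold of 0.05. This p rests on a spread moderated over all 387 combinations, and not on how this chain alone varied over node types. That fit called 0% of the combinations (0 of 387, with 24 at an unadjusted p under 0.05), and DESeq2 called 0 with 4 at an unadjusted p under 0.05. For the joined chain DESeq2 gave -3.92 with a larger SE of 1.36. Combinations whose shares did not overlap between genotypes made up 8.53% of the table where 5xFAD was lower and 7.24% where it was higher. The sCLN libraries bore most on the size, as the fitted difference was -5.60 without sCLN WT and -5.41 without sCLN 5xFAD. When TRA chains with the same junction in a library were counted once, whatever their TRB chain, it was -2.51 with an adjusted p of 0.717 in edgeR. That took sCLN WT from 6 joined chains to 2, although only 2 of the 6 cells shared a TRB junction. Such a count merges separate cells that carry the same invariant junction, so it cannot serve as a correction for repeated clones.

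The invariant chains alone numbered 3, 6 and 7 in the dCLN, sCLN and iLN libraries of WT mice. Together these were 16 of 5177 TRA chains, a share of 0.309% (0.177 to 0.501). No invariant chain was found among 8245 TRA chains of the 5xFAD libraries, which allows a share of up to 0.0364%. The pooled WT share as measured was 8.49 times that limit of 3 chains over the group, a ratio that leaves out the counting error of the WT share.

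**Figure D1:**
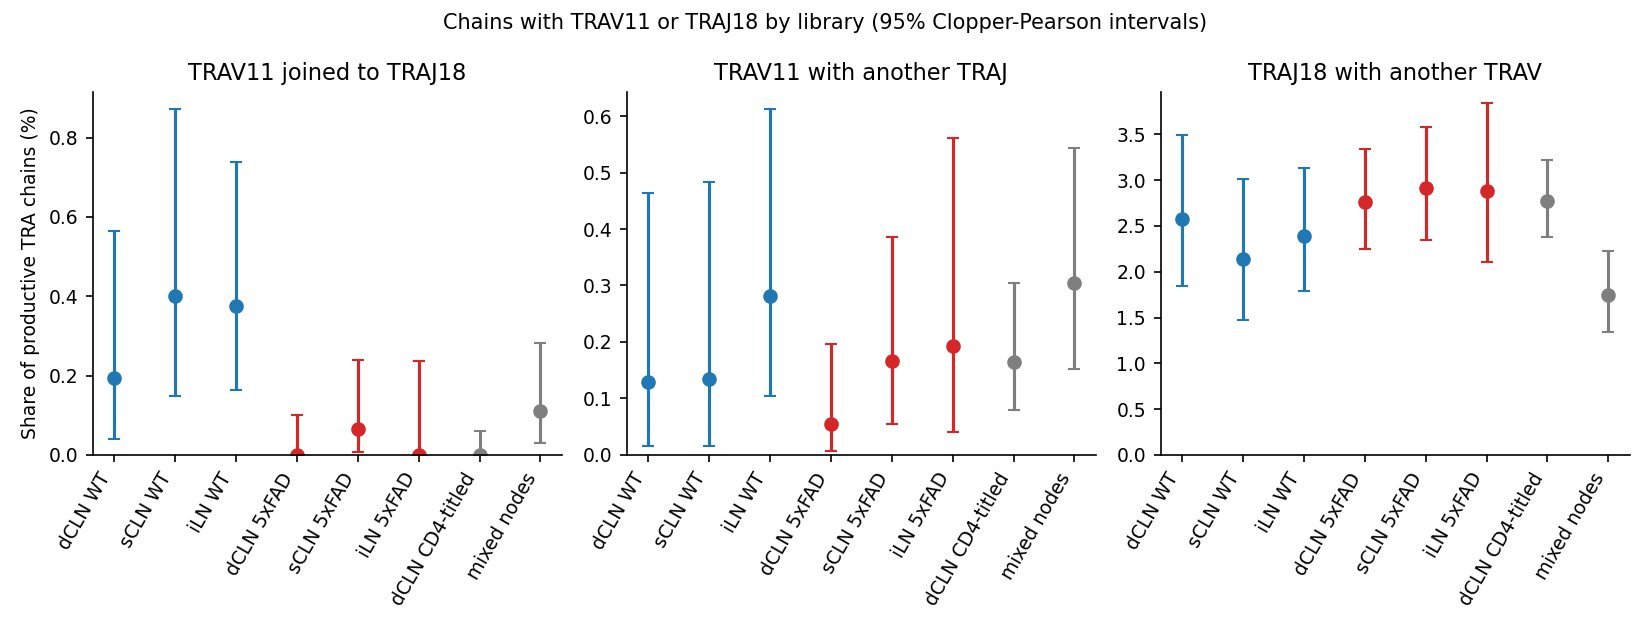
Share of productive TRA chains (%) in each of 8 libraries for chains with both segments, with TRAV11 alone and with TRAJ18 alone, as points with 95% Clopper-Pearson intervals. Blue is WT, red 5xFAD and grey the CD4-titled and mixed libraries. The joined chain lies at 0.193% to 0.401% in WT and at 0% to 0.0662% in 5xFAD, while chains with TRAJ18 alone lie between 1.74% and 2.91% throughout.

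TRAV11, the V segment, followed the joined chain. In WT mice it made up 0.322% of TRA chains in dCLN, 0.535% in sCLN and 0.658% in iLN. The 5xFAD values were 0.0546% in dCLN, 0.232% in sCLN and 0.192% in iLN. The WT libraries were again all above the 5xFAD libraries. The counts behind these shares were small, with 27 TRAV11 chains in WT and 12 in 5xFAD.

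The fitted log2 difference of TRAV11 was -1.65 (SE 0.43), the largest in size of the 61 TRAV subgroups and TRAJ genes tested, against a median size of 0.20 over all of them. Its unadjusted p was 0.0208 and its adjusted p 0.225 in edgeR, so it did not pass the threshold. DESeq2 gave -1.79 for TRAV11 with a larger SE of 1.00. The edgeR fit called 0% of these features (0 of 61, with 11 at an unadjusted p under 0.05), and DESeq2 called 0 with 4 at an unadjusted p under 0.05. Features whose shares did not overlap between genotypes made up 18.0% of this table where 5xFAD was lower and 8.20% where it was higher, so the separation of TRAV11 was shared with several other features. Among chains with TRAV11 but another joining gene, the WT libraries held 2, 2 and 6 and the 5xFAD libraries 2, 5 and 3 in dCLN, sCLN and iLN. Their shares averaged 0.181% ± 0.087 for WT and 0.137% ± 0.073 for 5xFAD (SD, n = 3), and the groups overlapped.

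TRAJ18, the J segment, was common and was joined mostly to other variable genes. Its share of TRA chains in dCLN, sCLN and iLN was 2.77%, 2.54% and 2.77% in WT mice, and 2.76%, 2.98% and 2.88% in the same nodes of 5xFAD mice. The genotypes overlapped. The fitted log2 difference was 0.09 (SE 0.10), with an adjusted p of 0.821 in edgeR. DESeq2 gave 0.09 with a larger SE of 0.33. Among TRA chains whose V region did not match the reference, the fitted value in edgeR was -0.20 with an adjusted p of 0.901. TRAJ18 without TRAV11 made up 2.37% ± 0.22 of chains for WT and 2.85% ± 0.083 for 5xFAD (SD, n = 3), with the highest WT library at 2.58% and the lowest 5xFAD library at 2.76%.

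An exact two-sided sign-flip permutation test over the 3 node types was run on each of 5 shares, and its smallest possible p is 0.25. The difference for the joined chain was -0.301 percentage points ± 0.096 (SD over node types), lower in 5xFAD in 3 of 3 node types, with an exact p of 0.25. TRAV11 as a whole differed by -0.345 points, also lower in 3 of 3, with an exact p of 0.25. TRAJ18 without TRAV11 was higher in 5xFAD in 3 of 3 node types by 0.481 points, again with an exact p of 0.25. Among V regions not matching the reference, however, that difference was -0.00079 points with an exact permutation p of 1. Each of these had a p of 0.417 after Benjamini-Hochberg adjustment over the 5 permutation tests. TRAJ18 as a whole and TRAV11 without TRAJ18 had an exact permutation p of 0.5.

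**Figure D2:**
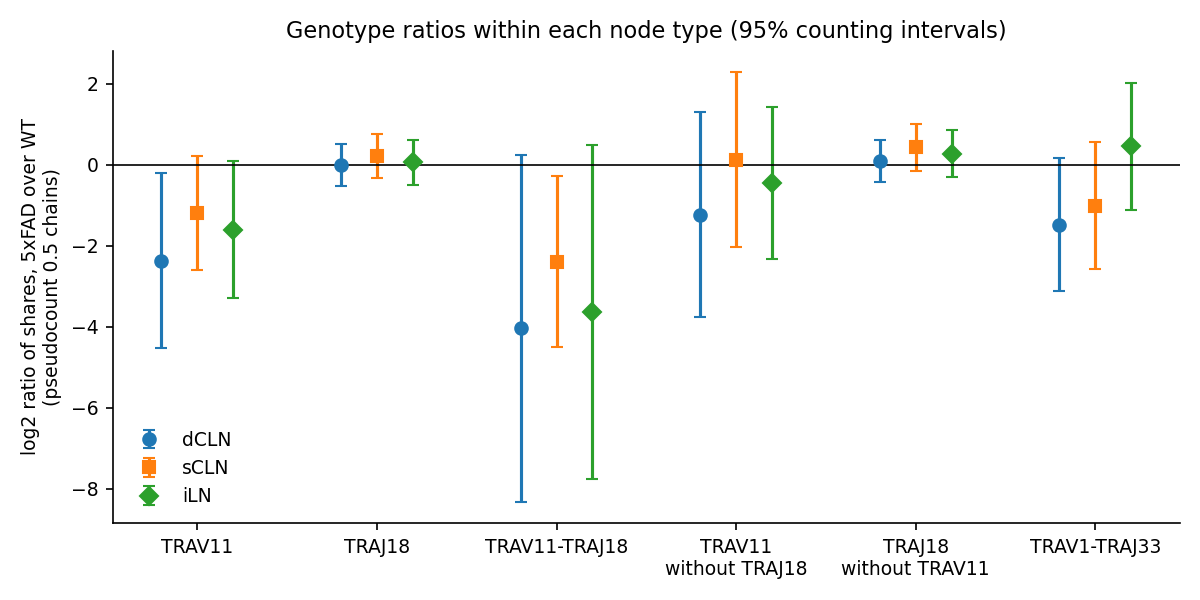
Log2 ratio of shares, 5xFAD over WT, within dCLN (circles), sCLN (squares) and iLN (diamonds), with 95% counting intervals and a pseudocount of 0.5 chains. TRAV11 and TRAV11-TRAJ18 lie below 0 in each node type, with the TRAV11 interval below 0 in dCLN and the TRAV11-TRAJ18 interval below 0 in sCLN, and TRAJ18 lies near 0.

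The chain of the other well-known semi-invariant T cells, the mucosal-associated invariant T (MAIT) cells, joins TRAV1 to TRAJ33 and was counted for comparison. It made up 0.386%, 0.401% and 0.282% of TRA chains in dCLN, sCLN and iLN of WT mice and 0.136%, 0.199% and 0.384% in those of 5xFAD mice, so the genotypes overlapped. The WT libraries held 18 such chains of 5177 and the 5xFAD libraries 17 of 8245, against 17 and 2 for TRAV11-TRAJ18. As pooled shares these were 0.348% and 0.206% for the MAIT chain and 0.328% and 0.0243% for TRAV11-TRAJ18. Both chains were thus lower in 5xFAD when pooled, though the MAIT chain was higher in iLN. The difference between the MAIT and iNKT chains in their genotype ratio was not tested.

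Between node types no member passed the threshold. The fitted log2 difference of TRAV11 was -1.22 (SE 0.54) for dCLN minus sCLN, -1.29 (SE 0.54) for dCLN minus iLN and -0.07 (SE 0.48) for sCLN minus iLN. Their adjusted p-values in edgeR were 0.936, 0.922 and 0.996. The joined chain differed by -1.53 (SE 1.17), -1.03 (SE 1.19) and 0.50 (SE 1.03) in the same contrasts, with adjusted p-values of 0.990, 0.997 and 0.999 in edgeR. For dCLN minus sCLN it moved to -4.10 without sCLN WT and to -3.32 without dCLN WT. For dCLN minus iLN it moved to -2.84 without dCLN WT and turned to 1.77 without iLN WT, and for sCLN minus iLN it moved to 3.20 without sCLN WT and to 3.29 without iLN WT. Differences of TRAJ18 were -0.02 (SE 0.11), -0.05 (SE 0.12) and -0.02 (SE 0.12). The fits called 0% of both tables in each node contrast, and the features at an unadjusted p under 0.05 numbered 1, 0 and 1 of 61 and 7, 5 and 10 of 387.

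Ordered over 8 libraries, the TRAV11 share ran from iLN WT at 0.658% (0.360 to 1.10) through sCLN WT, the mixed library at 0.415%, dCLN WT, sCLN 5xFAD, iLN 5xFAD and the CD4-titled library at 0.165% to dCLN 5xFAD at 0.0546% (0.00661 to 0.197). The intervals of every pair of neighbours in this order overlapped, and those of the first and last did not. The TRAJ18 share ran from 2.98% (2.40 to 3.65) in sCLN 5xFAD to 2.54% (1.80 to 3.47) in sCLN WT and 1.85% (1.44 to 2.35) in the mixed library. Among the features whose log2 share followed that of TRAV11 most closely over the 6 main libraries were TRAJ22 (Pearson r of 0.87), TRAJ33 (0.84) and TRAV3 (0.74). For TRAJ18 these were TRAV17 (0.86), TRAJ58 (0.76) and TRAJ52 (0.76). These 6 points share library depth and genotype, and the values of r are descriptions.

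In the CD4-titled library 10 chains carried TRAV11 and 168 carried TRAJ18, but 0 of 6049 carried both, which allows a share of up to 0.0496%. In that library 2 chains were of the TRAV1-TRAJ33 kind. In the mixed library 4 of 3617 chains carried both segments (0.111%, 0.0301 to 0.283), and 3 of them were invariant. These 3 rested on 1 or 2 UMIs each, whereas the 16 invariant chains of the WT libraries rested on 2 to 23 UMIs with a median of 3. For chains with neither segment the median was 5 UMIs in the WT libraries, 4 in the mixed library and 6 over the 6 main libraries.

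If TRAV11 and TRAJ18 were joined independently within each library, the product of their shares would give 0.730 joined chains in the WT libraries and 0.350 in the 5xFAD libraries. The counts were 17 and 2. In the CD4-titled library the product was 0.278 chains and the count 0, and in the mixed library 0.278 and 4. Of the 5xFAD libraries, only sCLN was above its product of 0.209, and dCLN and iLN had 0 chains against products of 0.0551 and 0.0865.

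The junctions of the joined chains stood apart in length, which the choice of segments did not fix. A length of 45 nucleotides was found in 19 of 23 chains with both segments, 82.6% (61.2 to 95.05). It was found in 31.7% (18.1 to 48.1) of chains with TRAV11 alone, 35.0% (31.2 to 39.0) of those with TRAJ18 alone and 13.9% (13.4 to 14.3) of all other TRA chains. In the WT libraries 16 of 17 joined chains had that length, and in sCLN 5xFAD 0 of 2.

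Added bases were fewest in the joined chains, where 19 of 23 had at most 1 (82.6%). The share with at most 1 was 43.9% for TRAV11 alone, 40.6% for TRAJ18 alone and 33.1% for other chains. A joint with no added base was found in 34.8% of joined chains (16.4 to 57.3) and 26.8% of those with TRAV11 alone (14.2 to 42.9). It was found in 24.5% of those with TRAJ18 alone (21.1 to 28.2) and 18.4% of other chains (17.9 to 18.9). In the 6 main libraries the order turned, with 26.3% of joined chains and 35% of those with TRAV11 alone. A joint with no added base was thus not particular to the joined chains. All 11 germline codons of TRAJ18 were kept in 20 of 23 joined chains (87.0%, 66.4 to 97.2), against 114 of 588 chains with TRAJ18 alone (19.4%, 16.3 to 22.8). The count of added bases rests on how IgBLAST divides bases that both segments could supply.

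**Figure D3:**
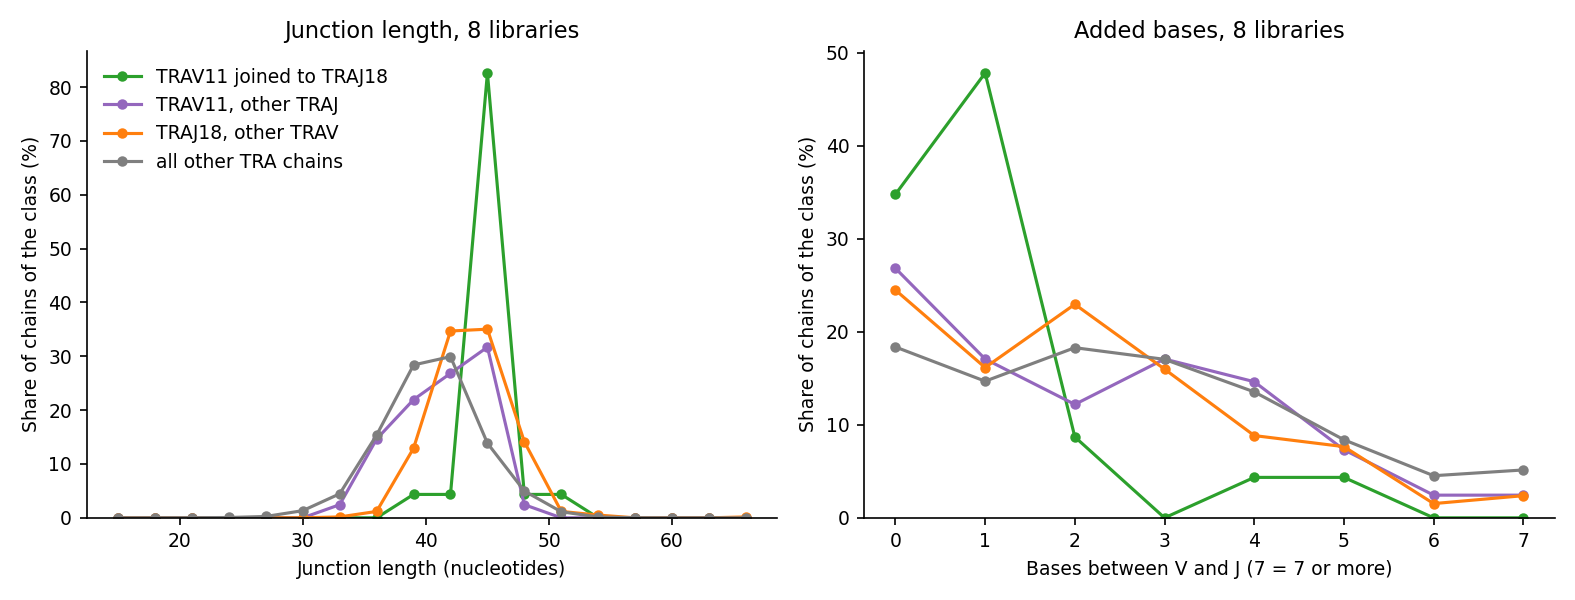
Junction length in nucleotides (left) and bases assigned between V and J (right, with 7 standing for 7 or more) as a share of the chains of each class (%) over 8 libraries. The joined chains peak at 45 nucleotides with 82.6%, where other TRA chains have 13.9%.

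TRAV11 occurred in 2 allelic forms. They differed over the 267 bases of the V region before the junction by C154G, T156C, G157C and T162A, written as allele 01, position from the start of the V region, allele 02. These fall in codons 52, 53 and 54, and each of these codons encodes another residue in the other allele. The form of allele 02 was found in both Trav11 and Trav11d of the GRCm38 annotation, and that of allele 01 in neither. The V regions of both are shown with the differing bases in capitals.
TRAV11*01 V region: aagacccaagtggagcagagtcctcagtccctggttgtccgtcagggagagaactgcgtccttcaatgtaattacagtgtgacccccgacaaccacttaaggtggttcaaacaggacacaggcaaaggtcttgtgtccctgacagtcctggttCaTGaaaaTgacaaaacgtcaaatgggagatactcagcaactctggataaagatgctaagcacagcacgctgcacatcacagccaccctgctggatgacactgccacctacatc
TRAV11*02 V region: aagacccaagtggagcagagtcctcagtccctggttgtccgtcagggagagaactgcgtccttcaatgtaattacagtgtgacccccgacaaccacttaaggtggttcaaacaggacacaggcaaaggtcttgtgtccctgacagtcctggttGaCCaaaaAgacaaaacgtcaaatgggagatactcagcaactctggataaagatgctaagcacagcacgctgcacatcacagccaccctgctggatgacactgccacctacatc

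All 12 TRAV11 chains of the 5xFAD libraries were of allele 01. The WT libraries held both, with 4 of allele 01 and 1 of allele 02 in dCLN, 3 and 5 in sCLN, and 7 and 7 in iLN. The CD4-titled library had 8 and 2, and the mixed library 2 and 13. TRAJ18 was called as allele 01 in all 611 chains.

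What TRAV11 was joined to was counted within each allele. In the WT libraries 11 of 14 allele 01 chains were joined to TRAJ18, and all 11 were invariant. In the 5xFAD libraries 2 of 12 were joined to TRAJ18, and 0 were invariant. The CD4-titled library had 0 of 8 joined, and its 10 TRAV11 chains of both alleles held 8 distinct junctions. Of the 11 invariant allele 01 chains in WT, 3 came from cells that shared a TRB junction. These are thus counts of chains and not of separate joining events. Of the 13 allele 02 chains in WT, 6 were joined to TRAJ18 and 5 of these were invariant, so invariant chains were found on both alleles.

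Over TRA chains whose V region did not match the reference, the invariant chain made up 0.469% in the WT libraries (11 of 2344, 0.234 to 0.838). In the 5xFAD libraries it was found in 0 of 7140, which allows a share of up to 0.0420%. The fitted log2 difference of TRAV11-TRAJ18 among such chains was -3.81, with an adjusted p of 1.00 in edgeR, and that of TRAV11 was -1.66 with an adjusted p of 0.784. The difference between genotypes in the share of allele 01 chains joined to TRAJ18 was not tested.

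**Figure D4:**
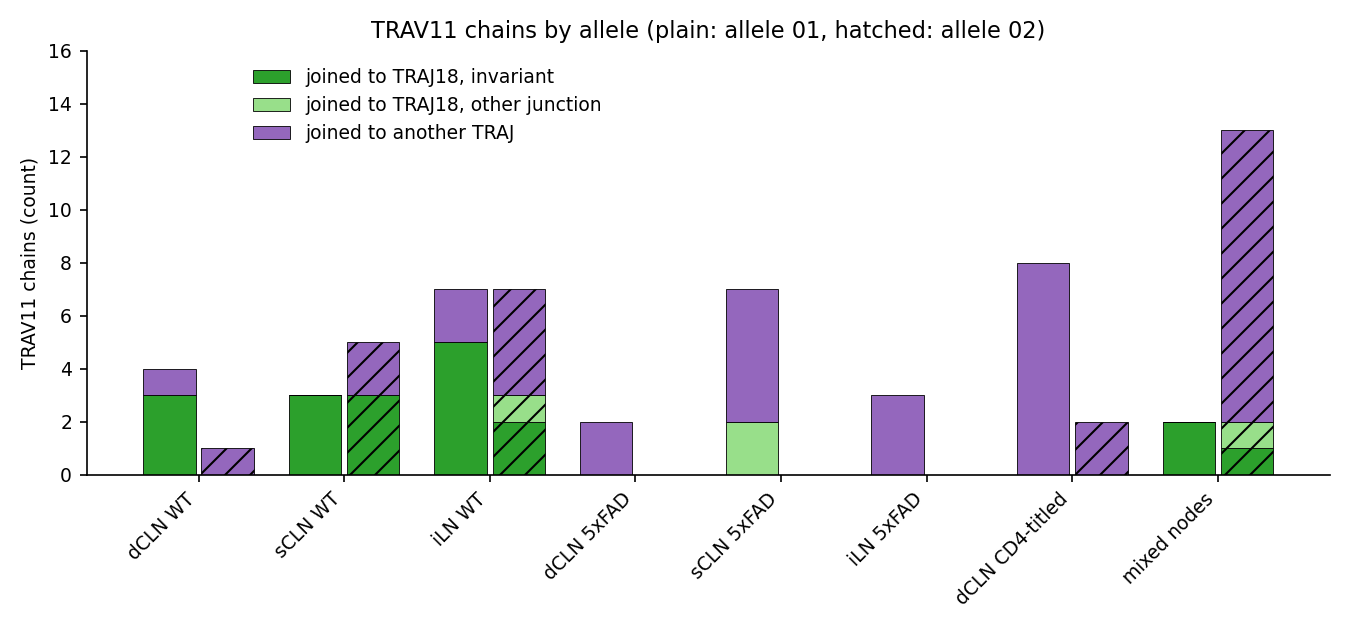
Number of TRAV11 chains in 8 libraries, split by allele (plain 01, hatched 02) and by what they were joined to. The 12 chains of the 5xFAD libraries are all of allele 01 with 2 joined to TRAJ18, whereas 11 of 14 allele 01 chains of the WT libraries are invariant.

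The beta partner was not used to choose the chains. Among barcodes with exactly 1 TRB chain, 17 carried an invariant chain, and their partners were TRBV13-1 in 6, TRBV13-2 in 6, TRBV13-3 in 3 and TRBV29 in 2. Of the 6 with TRBV13-1, 3 held the same TRB junction, 1 in dCLN WT and 2 in sCLN WT. These counts are thus of cells and not of distinct receptors. None of the 17 carried TRBV1. The 3 TRBV13 genes belong to 1 family, known as V-beta 8, so every partner was of that family or TRBV29. In the GRCm38 annotation Trbv13-2 lies on chromosome 6 at 41121396 to 41121832, Trbv29 at 41271394 to 41271881 and Trbv1 at 40891229 to 40891885.

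The use of TRBV13-2, TRBV29 or TRBV1 among cells with TRAV11-TRAJ18 varied by library. In WT mice it was 0 of 3 cells in dCLN, 3 of 6 in sCLN and 5 of 5 in iLN. It was 1 of 2 in sCLN 5xFAD and 1 of 4 in the mixed library. Other cells of these libraries used these genes in 21.7% to 28.3%. The difference averaged 19.7 percentage points ± 35.5 (SD, n = 5 libraries) and was positive in 4 of 5, with a two-sided exact sign-flip permutation p of 0.312, where the smallest possible p is 0.0625. It fell to 6.74 points without iLN WT. With invariant chains only, where the mixed library had 0 of 3, the difference averaged 12.2 points ± 45.6 (SD, n = 4 libraries), positive in 2 of 4, with an exact permutation p of 0.75.

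With TRBV13-1 and TRBV13-3 counted too, a definition chosen after their values were seen, 19 of 20 such cells had a partner of the set. Other cells of these libraries had such a partner in 36.4% to 45.2%. The difference averaged 48.8 points ± 21.2 (SD, n = 5 libraries), positive in 5 of 5. Its exact permutation p was 0.0625, the smallest that 5 libraries can give. This test takes the libraries as independent, although 1 cell of dCLN WT and 2 of sCLN WT shared a TRBV13-1 junction. The cell outside the set was 1 of the 2 in sCLN 5xFAD. It paired the junction of 48 nucleotides with TRBV17, and the junction of 51 nucleotides was paired with TRBV1.

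Partners of chains with only 1 of the segments were counted in the same way. TRBV13-2, TRBV29 and TRBV1 together made up 25.8% (20.96 to 31.2) of partners of TRAJ18-only chains in the 6 main libraries and 26.8% (25.9 to 27.6) of those of all other TRA chains. By genotype the TRAJ18-only value was 25.0% in WT and 26.3% in 5xFAD. Among TRAV11-only chains with 1 partner, 3 of 5 in WT and 0 of 10 in 5xFAD used these genes. All 5 in WT were from iLN, as the 2 TRAV11-only chains of dCLN WT and the 2 of sCLN WT had no TRB chain.

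**Figure D5:**
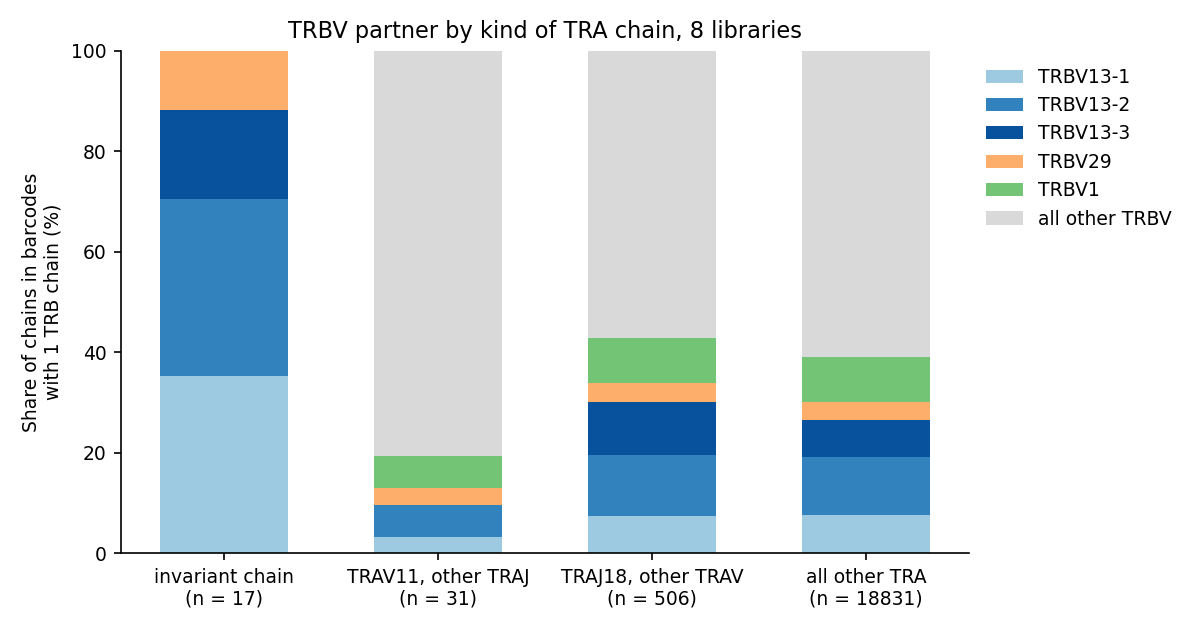
TRBV gene of the partner as a share (%) of chains in barcodes with 1 TRB chain, over 8 libraries, for invariant chains, chains with TRAV11 alone, chains with TRAJ18 alone and all other TRA chains. TRBV13 genes and TRBV29 make up all 17 partners of the invariant chain, and TRBV13 genes, TRBV29 and TRBV1 make up 39.0% of those of other chains.

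The 19 invariant chains came from 19 barcodes, of which 1 had no TRB chain, 1 had 2 TRB chains and 1 had a second TRA chain. Their 19 TRB chains had 17 distinct junctions of 33 to 51 nucleotides, and 9 of the 19 used a TRBJ2 gene. The invariant alpha chain was thus carried with many beta chains. One TRB junction, of TRBV13-1 and TRBJ2-7, recurred with the same TRA version in 1 dCLN WT and 2 sCLN WT cells, the only such repeat between node types. The TRB junctions of 3 other invariant cells, all from iLN WT, each recurred in 1 barcode without a TRA chain, with 2 of these barcodes in iLN WT and 1 in sCLN WT. The junction shared with a TRA chain is shown because it links 2 nodes.
TRBV13-1 TRBJ2-7: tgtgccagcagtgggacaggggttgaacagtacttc

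Chains with TRAJ18 alone were spread over many variable genes. In the 6 main libraries 65 of 357 used TRAV6 (18.2%, against 21.4% of all TRA chains), 63 used TRAV7 (17.6% against 13.6%) and 44 used TRAV12 (12.3% against 7.78%). Distinct combinations of V subgroup and junction numbered 502 among the 588 chains of 8 libraries, and 8.17% of these were found in 2 or more libraries, against 6.00% for other TRA chains. Of the 20 TRAV11-only chains, 4 were joined to TRAJ27 (20% against 3.14% of all TRA chains) and 3 to TRAJ32 (15% against 2.85%). TRAJ56 and TRAJ6 had 2 each (10%, against 2.35% and 1.48%), and both TRAJ6 chains were from 5xFAD. TRAV11 joined to TRAJ6 was also found in the CD4-titled library and in the mixed library. The TRAV11-only chains of 8 libraries had 38 distinct combinations, of which 1 was found in more than 1 library. That was a TRAJ6 junction of iLN 5xFAD and the CD4-titled library.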

How the data were processed

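Each sample had 1 table of assembled TCR contigs from cells tagged with 4 hashtags and of over 87% viability, per the labels' protocols. Per the submitters' processing notes, Cell Ranger 6.0.1, Seurat 4.1.0 and mm10 were used, without a stated role. V and J genes were called with IgBLAST, per the file headers. The deposited counts are UMIs and reads per contig without normalization, and the deposited fraction is the V or J identity, per the file headers. Junction length and added bases are other deposited values, in nucleotides.

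Members and lists were chosen with earlier results of these data known. Chains per TRAV subgroup, per TRAJ gene and per combination were counted here. Features with under 10 chains in the 6 main libraries were left out. The test was edgeR's quasi-likelihood fit (edgeR 4.0.16, R 4.3.3) with node type and genotype as terms and all productive TRA chains as offset, and p-values were adjusted by Benjamini-Hochberg over each table (threshold 0.05). The fit was tested on simulated counts. With 1 library per node and genotype, p-values do not rest on variation between animals. They rest on how genotype differences vary among 3 node types, moderated over all features of a table. Alternatives included DESeq2 1.42.0, TMM scaling, no filter, other units of counting and leaving out each library.

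Invariant junctions were defined from the TRAV11 and TRAJ18 transcripts of the GENCODE annotation of GRCm38, and V regions were searched in the same transcripts. Barcodes with 3 or more TRA or 2 or more TRB chains were left out in an alternative, and no doublet caller was run. Genes were named by rule: the members, the 3 usual TRBV partners, the 3 most frequent partners in each direction, the 3 features most alike in log2 share (pseudocount of 0.5 chains) and the MAIT chain. TRBV13-1, TRBV13-3, TRBV17 and TRAJ6 were named after their values were seen. Python 3.11.15 with pandas 2.3.3 and scipy 1.17.1 was used.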

Additional observations from a re-analysis of the deposited data

How the results depend on the processing

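TRAV11 and TRAV11-TRAJ18 were lower in 5xFAD in each alternative that gave a value, and none passed the threshold. Leaving out 1 library gave log2 differences of -2.03 to -1.43 and -5.60 to -3.08, with adjusted p-values in edgeR or DESeq2 of 0.167 to 0.784 and 0.132 to 1.00 over all alternatives. Leaving out V calls that name more than 1 gene removes all allele 01 chains of the main libraries, which gave -5.45 for TRAV11 and no value for the combination. Replicate numbers pair no libraries here, and genotypes were compared within node types in both the fit and the permutation test. Features called between genotypes in the TRAV and TRAJ table numbered 3 with paired cells only, 2 with at least 2 UMIs, 3 without barcodes with extra chains and 0 to 1 when 1 library was left out. Small counts limit every value on the joined chain.

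Directions that reversed were all of differences that did not pass the threshold, and the cause was not tested. With V regions not matching the reference only, TRAJ18 differed by -0.20 between genotypes in the fit, by -0.438 percentage points as a share and by -0.00079 points without TRAV11, and TRAV11 without TRAJ18 by 0.0423 points. The last was 0.115 points with paired cells only. TRAV11 for sCLN minus iLN was 0.16 with paired cells only, 0.0087 with at least 2 UMIs, 0.015 without extra chains, 0.00045 in DESeq2 and -0.35 to 0.50 when 1 library was left out. TRAJ18 for dCLN minus sCLN was 0.040 with distinct chains, 0.19 with paired cells only, 0.00075 without extra chains and -0.10 to 0.10 when 1 library was left out. TRAJ18 for dCLN minus iLN was 0.12 with paired cells only and -0.11 to 0.040 when 1 library was left out. For sCLN minus iLN it was 0.10 without ambiguous V calls, 0.022 with TMM and -0.14 to 0.067 when 1 library was left out. When 1 library was left out, TRAV11-TRAJ18 was -4.10 to -1.01 for dCLN minus sCLN, -2.84 to 1.77 for dCLN minus iLN and 0.11 to 3.29 for sCLN minus iLN.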
